A study of Mus musculus with 2 samples.

Results

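The genes followed here belong to sterol synthesis and its control: Srebf2 and Insig1, which regulate the pathway, and the enzyme genes Hmgcs1, Idi1, Sqle, Lss and Cyp51. They were chosen by name, as rows of the count table whose Ensembl identifier maps to the listed symbols, and all 7 of the 7 were found among 46983 genes. None of the 7 is a receptor for cholesterol uptake, so uptake is covered below only through a list of other genes.

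Cells make cholesterol from acetyl-CoA through mevalonate and squalene, and the supply is set by a feedback loop. When sterols run low in the endoplasmic reticulum, SCAP escorts the precursor of the transcription factor SREBP2, the product of Srebf2, to the Golgi, where proteases release its active part. That part enters the nucleus and activates the genes of synthesis and uptake. INSIG1 holds SCAP back when sterols are plentiful, and Insig1 is itself a target of the factor. Transcript counts do not measure this cleavage.

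RNA sequencing was done on 46C mouse embryonic stem cells, an established line grown on feeder cells in medium with 15% fetal bovine serum and leukaemia inhibitory factor (LIF). In the knockdown group the cells expressed a hairpin that targets linc1557, a long noncoding RNA, and in the control group a control hairpin. Both were delivered by virus and followed by puromycin for 2 days, and stably infected clones were picked; how many clones went into a library is not given in the sources used here. There was 1 library per group, so no difference has a replicate check, no test was possible, and no p-value is given.

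Total counts were 26693282 for the knockdown library and 23146210 for the control. Of all genes, 15850 entered, meaning that they reached at least 1 CPM (the count scaled to library size) after TMM scaling in either library, and these had median counts of 336 in knockdown RNA and 325 in control RNA. Markers of pluripotent cells were abundant in both libraries, as for Zfp42 with 9856 counts in knockdown RNA and 6708 in control RNA, and none of the 10 differed by 2-fold. Of 20 markers of feeder fibroblasts, 14 were lower by 2-fold or more under the knockdown, against 9.48% of all entered genes. The summed level of the 20 was 1806 CPM in knockdown RNA and 3096 CPM in control RNA, and none was at 0. The row of linc1557 was not identified by name, so its level is not analysed here and the libraries are named as labelled.

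SREBP2 is known to bind sterol regulatory elements in promoters, and windows of 3 member promoters are shown for the letters searched. The sterol regulatory element was searched as TCACNCCAC on both strands of RefSeq promoters of GRCm38.p6, each 300 bases long, and it was found in 1.24% of all promoters. Of the 7 genes, 6 had a promoter in the table, and of these only Hmgcs1 held the motif, starting 137 bases upstream of the RefSeq transcription start. For Hmgcs1 and Lss the bases just after the RefSeq start were found in no GENCODE M21 transcript of the gene, so these starts differ between the annotations. The shorter TCACNNCA, tried after the promoters had been seen, occurred in 13.8% of all promoters and in 3 of the 6, those of Hmgcs1, Srebf2 and Cyp51. The Srebf2 promoter held another match on the opposite strand, at -220 from the start, which lies outside the window shown. The windows below are 60 bases each on the strand of the gene, with the TCACNNCA match in capitals, from chr13:119690188-119690247 (plus strand) for Hmgcs1, chr15:82147081-82147140 (plus strand) for Srebf2 and chr5:4104752-4104811 (minus strand) for Cyp51.
Hmgcs1: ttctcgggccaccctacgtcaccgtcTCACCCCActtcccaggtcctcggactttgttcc
Srebf2: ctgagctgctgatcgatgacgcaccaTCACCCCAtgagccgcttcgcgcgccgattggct
Cyp51: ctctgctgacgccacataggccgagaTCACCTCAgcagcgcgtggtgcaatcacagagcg

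Hmgcs1 and Srebf2 share all letters of the match shown. Binding sites of NF-Y (searched as CCAAT) and Sp1 (searched as GGGCGG), factors known to act beside SREBP2, were present in all 6 member promoters, against 37.4% and 35.7% of all promoters. These are matches of letters, and no binding was measured.

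None of the 7 genes differed by 2-fold between the libraries. The gene that stood furthest apart was Idi1, 1.53-fold lower in the knockdown library. Sqle, Cyp51 and Insig1 were each about 1.2-fold higher there, and Srebf2 itself was at nearly the same level in both libraries. A gene was called if its levels were 2-fold apart or more and the 95% Clopper-Pearson interval of the ratio left out 1; that interval covers counting error, not the variation between cultures or clones. Of all entered genes, 4.68% were called higher and 9.48% lower, together 14.2%, so 0 of 7 called members is read against that share. It covers genes of all depths, most with fewer counts than any member. In bulk RNA, fewer cells of a type and less RNA per cell cannot be told apart.

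**Figure D1:**
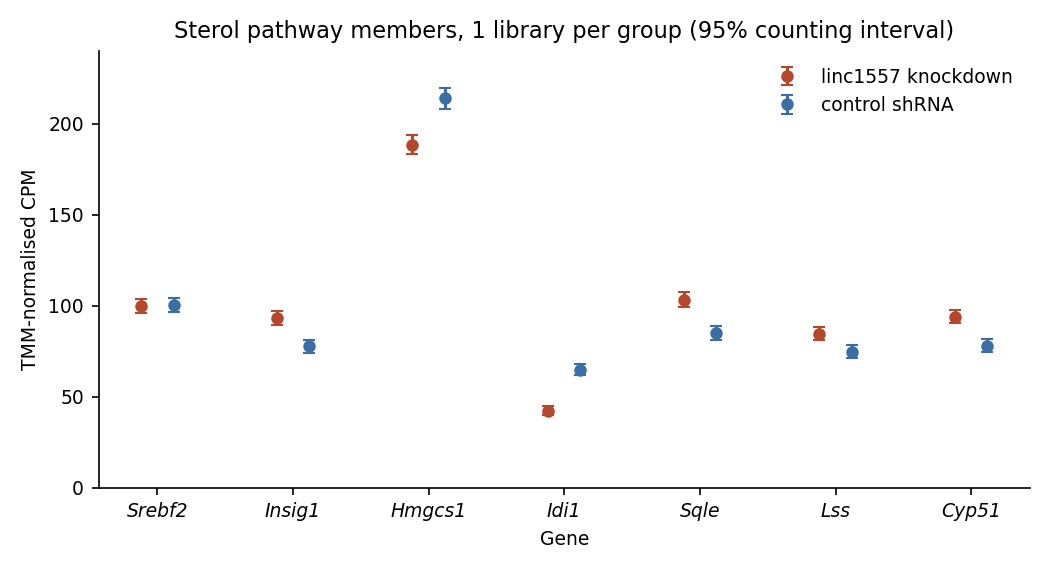
TMM-normalised CPM (vertical axis, linear, from 0) of the 7 genes in the linc1557 knockdown library (left point of each pair) and the control shRNA library (right point), with bars for the exact 95% Poisson interval of the count. Idi1 stands at 42.4 CPM in the knockdown and 64.9 CPM in the control library, while the points of Srebf2 lie at 99.9 CPM in the knockdown and 100.4 CPM in the control.

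Srebf2 (chromosome 15, 82147181 to 82205379, GRCm38), the gene of the factor itself, had 2560 counts in knockdown RNA and 2420 in control RNA. Its normalised level was 99.9 CPM in the knockdown and 100.4 CPM in the control. The log2 ratio of knockdown over control was -0.0062 (interval -0.09 to 0.07), so with TMM scaling it differed by less than counting error. Scaling by total counts gave -0.12, outside that interval. The microRNA gene Mir33, which lies inside Srebf2, had 1 count in knockdown RNA and 0 in control RNA.

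Insig1 (chromosome 5, 28071363 to 28078662), whose product retains SCAP in the endoplasmic reticulum, had 2390 counts in knockdown RNA and 1875 in control RNA, or 93.3 CPM against 77.8 CPM. It was 1.20-fold higher in the knockdown library (log2 ratio 0.26, interval 0.17 to 0.35). The target gene and the gene of its factor thus stood apart by more than counting error, since the count of Srebf2 per count of Insig1 was 0.83 times as high in the knockdown as in the control library (0.76 to 0.90).

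Hmgcs1 (chromosome 13, 119690379 to 119708260) encodes the synthase that makes the precursor of mevalonate and was the most abundant of the 7. It had 4830 counts in knockdown RNA and 5157 in control RNA, or 188.5 CPM against 213.8 CPM. The level was 1.13-fold lower in the knockdown library (1.09 to 1.18; log2 ratio -0.18).

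Idi1 (chromosome 13, 8885501 to 8892451) encodes the isomerase that interconverts the 2 isoprenoid building blocks. It had 1085 counts in knockdown RNA and 1566 in control RNA, or 42.4 CPM against 64.9 CPM, and was 1.53-fold lower in the knockdown library (1.42 to 1.66; log2 ratio -0.62). With a threshold of 1.5-fold in place of 2-fold it was the only member called, and at that threshold 16.4% of all entered genes were called lower and 11.5% higher, 27.9% in all.

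Idi1 also shares the most sequence with other genes. Of its distinct stretches of 50 bases, 25.3% occur in transcripts of other genes, and 17.7% in those of Gm13502, which had 197 counts in knockdown RNA and 250 in control RNA. With the counts of both genes added, the sum of 1282 counts in knockdown RNA and 1816 in control RNA gave a log2 ratio of -0.59, still just past 1.5-fold (1.51-fold lower). Shares for the other members were 11.6% for Hmgcs1, mostly with an antisense gene at its own locus, and from 0.036% to 2.77% for the rest.

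The enzymes that act on squalene and its products were each a little higher in the knockdown library. Sqle (chromosome 15, 59315077 to 59331192), the epoxidase that commits squalene to sterols, had 2647 counts in knockdown RNA and 2050 in control RNA, or 103.3 CPM against 85.0 CPM, and was 1.22-fold higher (1.15 to 1.29). Lss (chromosome 10, 76531588 to 76557138), the cyclase that forms lanosterol, had 2170 counts in knockdown RNA and 1805 in control RNA, or 84.7 CPM against 74.9 CPM, and was 1.13-fold higher (1.06 to 1.21). Cyp51 (chromosome 5, 4081145 to 4104746), which demethylates lanosterol, had 2408 counts in knockdown RNA and 1878 in control RNA, or 94.0 CPM against 77.9 CPM. It was 1.21-fold higher in the knockdown library (1.14 to 1.28). Cyp51 shares 166 exonic bases with Akap9 on the other strand, whose counts were 2206 in knockdown RNA and 2645 in control RNA, and without a stated strand setting reads there cannot be told apart.

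**Figure D2:**
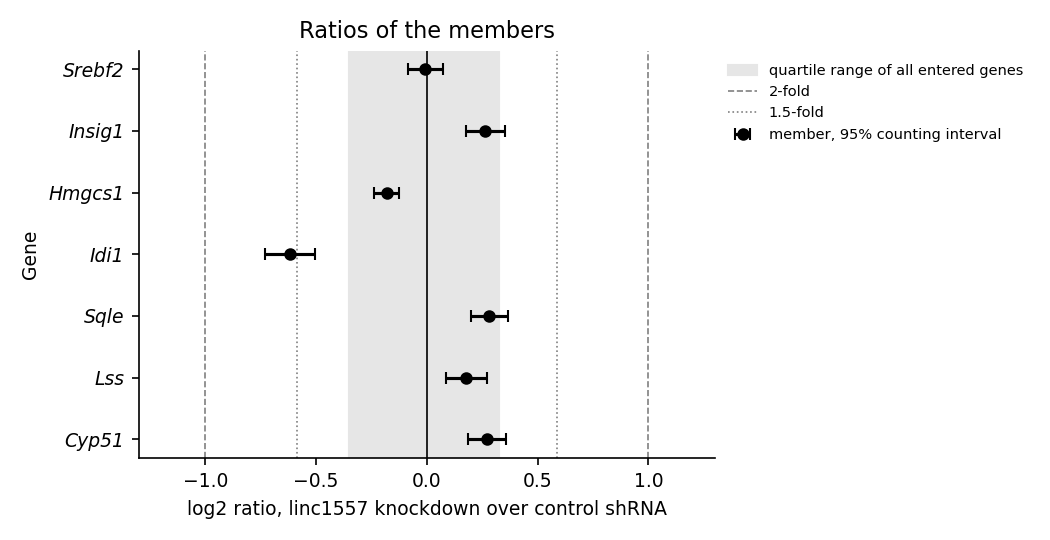
Log2 ratios of the 7 genes, linc1557 knockdown over control shRNA (horizontal axis), with 95% counting intervals; the grey band spans the quartiles of all entered genes (-0.35 to 0.33), and lines mark 1.5-fold and 2-fold. Idi1 alone lies outside the band, at -0.62, and the point of Sqle, the highest, is at 0.28.

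Across the 7 genes the log2 ratios ran from -0.62 for Idi1 to 0.28 for Sqle, with a median of 0.18. All entered genes had a median of 0.02 and quartiles of -0.35 and 0.33. With TMM scaling the counting intervals of 4 members lay above 0, those of 2 below, and that of Srebf2 held 0. Scaling by total counts moved each member ratio outside its interval, with Srebf2 at -0.12 and Lss at 0.06. At this depth a counting interval is narrow, and 63.9% of all entered genes had one that excluded 0, beside 6 of 7 members. The members had more counts than most of these genes, hence narrower intervals. The share among genes of like depth was not computed. Summed over the 7 genes, the level was 706.1 CPM in the knockdown and 694.6 CPM in the control library.

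The ratio of 2 members inside a library does not depend on scaling, and it was compared for all 21 pairs. In 15 pairs the change in that ratio exceeded counting error, and in 6 it did not. The 6 were the pairs among Insig1, Sqle, Lss and Cyp51, whose proportions to each other differed between the libraries by at most 0.10 on the log2 scale. All 6 pairs with Idi1 were among the 15. The count of Idi1 per count of Sqle was 0.54 times as high in the knockdown as in the control library (0.49 to 0.59), and per count of Hmgcs1, the other enzyme ahead of squalene, the count was lower too, with Hmgcs1 per Idi1 1.35 times as high (1.24 to 1.48).

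**Figure D3:**
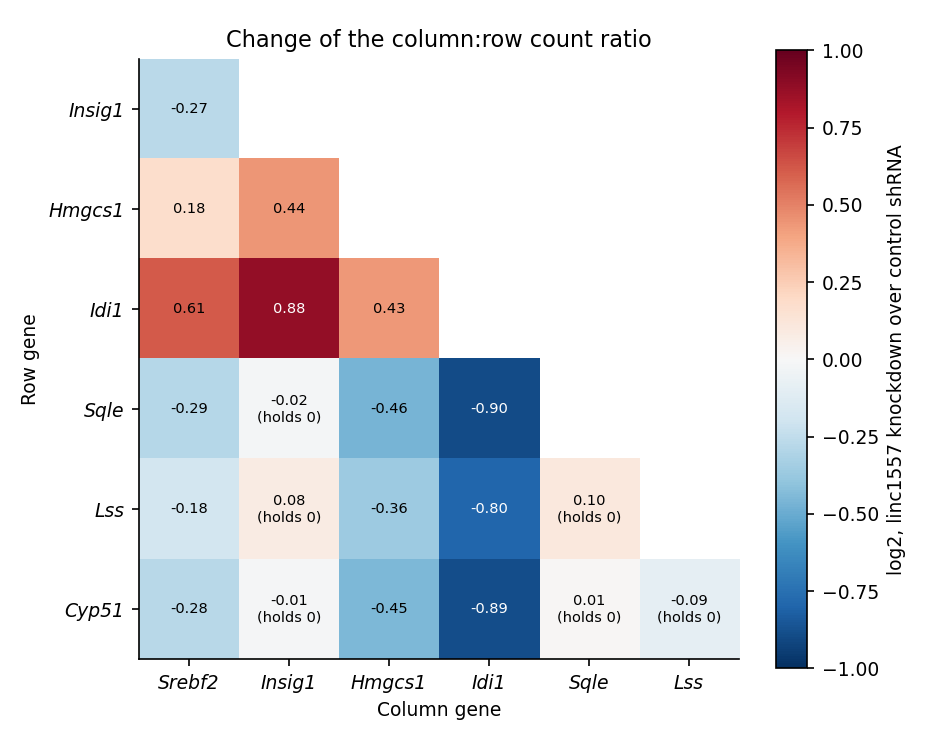
Log2 change, linc1557 knockdown over control shRNA, of the count of the column gene per count of the row gene, for the 21 pairs of members; colour and number give the same value, and "holds 0" marks a counting interval that includes 0. The row of Idi1 holds values from 0.43 to 0.88 and its column values from -0.90 to -0.80, and the pairs among Insig1, Sqle, Lss and Cyp51 are pale.

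Within a library, members can be ranked only per length of transcript. By the deposited gene lengths, Hmgcs1 led with 64.9 TPM (the count per length, as a share of the library) in the knockdown and 82.8 TPM in the control library, followed by Insig1 with 33.6 TPM in knockdown RNA and 31.5 TPM in control RNA, and Lss was last with 8.74 TPM in knockdown RNA and 8.68 TPM in control RNA. Between them stood Cyp51, Srebf2, Sqle and Idi1, in that order, in the knockdown library (23.7, 22.3, 20.7 and 13.4 TPM) and Srebf2, Idi1, Cyp51 and Sqle in the control library (25.2, 23.2, 22.1 and 19.2 TPM). The intervals of Cyp51 and Srebf2 overlapped in the knockdown library (22.8 to 24.7 against 21.4 to 23.2 TPM), as did those of Srebf2 and Sqle, whereas Idi1 stood below both. In the control library the interval of Idi1 (22.1 to 24.4 TPM) overlapped those of its neighbours Srebf2 and Cyp51, and Sqle stood below Cyp51. TPM serves for this order alone, and the comparison between libraries rests on CPM.

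Places in that order, among them those of Sqle, Lss and Srebf2, rest on length. The deposited lengths of Sqle (5546 bases) and Lss (10787) equal the union of all their exons in GENCODE M21, while their longest coding transcripts have 2758 and 4667 bases. The deposited lengths of Srebf2 (4989 bases) and Hmgcs1 (3233) are shorter than that union (7184 and 4594), so the order by deposited length mixes lengths that match this annotation with lengths that do not. Per length of the longest coding transcript, Sqle moved to second place in both libraries. Lss moved to sixth in the knockdown library, ahead of Idi1, and remained seventh in the control library. Srebf2 went from place 4 to 5 in the knockdown library and from 3 to 6 in the control library. Hmgcs1 was first by either length in both libraries.

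The other enzyme genes of the pathway, a list of 19 of which 18 entered, gave the same picture of small differences in both directions. None was called, and the median log2 ratio was 0.13, against 0.02 over all entered genes. Lbr, a sterol reductase of the nuclear envelope and the most abundant of the list, had 3582 counts in knockdown RNA and 3413 in control RNA (log2 ratio -0.02). At 1.5-fold 1 of the 18 was called, against 11.5% of all entered genes called higher and 27.9% in either direction. It was Tm7sf2, another sterol reductase, with 212 counts in knockdown RNA and 132 in control RNA (log2 ratio 0.60). Msmo1, which encodes a sterol oxidase, had a log2 ratio of 0.58, short of 1.5-fold, with 2362 counts in knockdown RNA and 1490 in control RNA. Tm7sf2 and Msmo1 were picked after their values were seen.

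Among the members, the 2 enzymes ahead of squalene were lower and the 3 from squalene on were higher in the knockdown library. This division was noticed in the data and gets no test. It did not extend to the other enzyme genes ahead of squalene, of which 4 had ratios above and 4 below 0 (median 0.01). The counting intervals of those 4 and 4 all excluded 0. Of the 10 others from squalene on, 6 lay above and 4 below 0 (median 0.13). Among these 10, the interval lay above 0 for 4 and below 0 for 1.

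**Figure D4:**
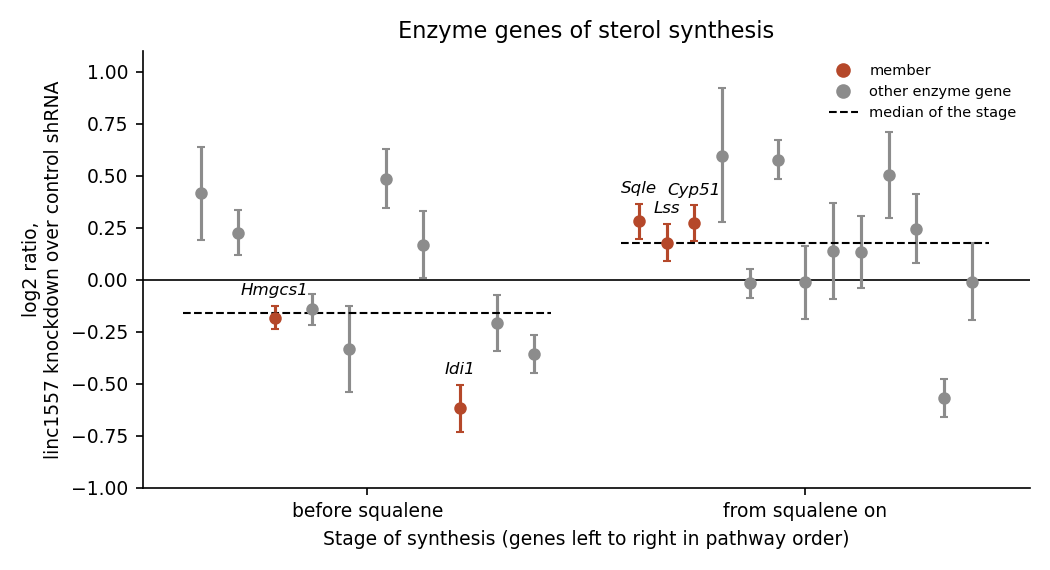
Log2 ratios, linc1557 knockdown over control shRNA (vertical axis), of the entered enzyme genes in pathway order within each stage, with 95% counting intervals; members are coloured and named, and dashed lines give the median of each stage. The stage ahead of squalene has a median of -0.16 over 10 genes and the stage from squalene on 0.18 over 13, and both hold genes on either side of 0.

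Genes of sterol sensing and SREBP processing included none called at 2-fold among 12, with a median log2 ratio of -0.16. Mbtps1, the first protease that cleaves the precursor, had 3216 counts in knockdown RNA and 2963 in control RNA (log2 ratio 0.03), and Vcp, the ATPase that extracts proteins from the endoplasmic reticulum, was at -0.02. At 1.5-fold 3 of the 12 were called, all lower in the knockdown library, where 16.4% of all entered genes were called lower and 27.9% in either direction.

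They included the escort gene Scap and the ubiquitin ligase gene Rnf145, named after their values were seen. Scap had 486 counts in knockdown RNA and 832 in control RNA, a log2 ratio of -0.86 (-1.03 to -0.70). Rnf145 had 1078 counts in knockdown RNA and 1717 in control RNA and a ratio of -0.76 (-0.87 to -0.65). Both lay below the lower quartile of all entered genes, as any gene called lower at 1.5-fold does by that rule. The paralogues of the member regulators, also named outside the rule, were Srebf1 with 986 counts in knockdown RNA and 897 in control RNA (log2 ratio 0.05) and Insig2 with 270 in knockdown RNA and 200 in control RNA (0.35).

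Of 17 entered genes of cholesterol uptake and lysosomal release, 2 were lower and none higher. Of all entered genes, 9.48% were called lower and 4.68% higher. The median of the list was -0.12. The lower genes of the list included Gramd1c, a sterol transfer gene, with 10 counts in knockdown RNA and 26 in control RNA (1.29 to 6.42-fold lower). Lrp1, a large receptor of the LDL receptor family, had 3540 in knockdown RNA and 3762 in control RNA (log2 ratio -0.18). Genes of LXR signalling, efflux and storage had 1 of 12 higher and 2 lower, beside the same shares of all entered genes. Their median was 0.02. The higher gene was Soat2, which esterifies cholesterol for storage, with 113 counts in knockdown RNA and 33 in control RNA, 3.22-fold higher (2.17 to 4.91). Its more abundant paralogue Soat1 had 1000 counts in knockdown RNA and 1765 in control RNA and a log2 ratio of -0.91 (-1.02 to -0.79), short of the call. The lower genes were those of the oxysterol enzymes Cyp27a1 and Cyp7b1. Cyp27a1 had 11 counts in knockdown RNA and 45 in control RNA (2.21 to 9.32-fold lower). Cyp7b1 had 10 in knockdown RNA and 36 in control RNA (1.86 to 8.64-fold lower). None of the genes called on the uptake and LXR lists reached 5 CPM in either library, so none of these calls remained with the filter at 5 CPM.

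Genes of fatty acid synthesis, the targets chiefly of SREBP1, had 1 of 16 higher, 1 lower and a median of 0.28. Of all entered genes, 4.68% were called higher and 9.48% lower. Fasn, the fatty acid synthase gene, had 7364 counts in knockdown RNA and 9525 in control RNA (log2 ratio -0.46), and the desaturase gene Scd2 had 10385 in knockdown RNA and 7831 in control RNA (0.32), neither of them called. Pnpla3, a lipase gene, was 2.62-fold higher in the knockdown library (2.01 to 3.44), from 217 counts there and 78 in control RNA. Elovl1, an elongase gene, was lower there, with 123 counts against 253 in control RNA and a log2 ratio of -1.13.

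The non-sterol branch, which leads to dolichol, ubiquinone and prenylated proteins, had 1 of 17 genes lower, none higher and a median of -0.05. That gene was Srd5a3, of dolichol synthesis, with 53 counts in knockdown RNA and 130 in control RNA (log2 ratio -1.38). The prenyl transferase subunit genes Rabggtb and Fnta had log2 ratios of -0.01 and -0.05. Over the 6 lists together, 2 of 92 entered genes were higher and 6 lower, against 4.68% and 9.48% of all entered genes.

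**Figure D5:**
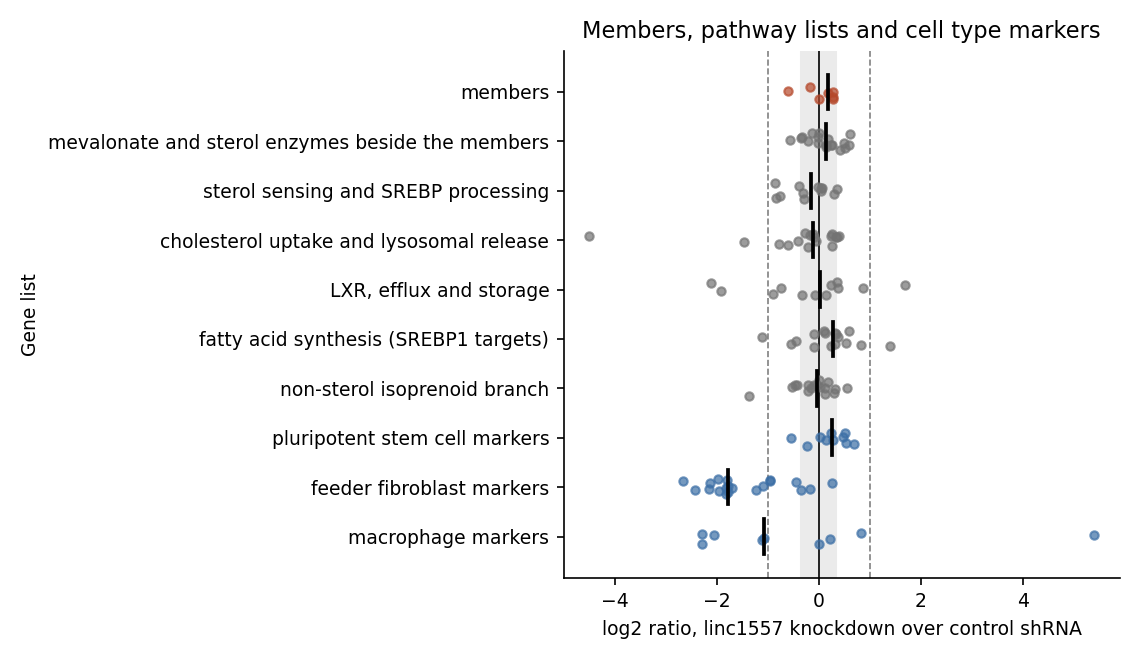
Log2 ratios, linc1557 knockdown over control shRNA (horizontal axis), of the entered genes of each list, 1 point per gene, with bars for list medians; the grey band spans the quartiles of all entered genes and dashed lines mark 2-fold. The medians of the members (0.18) and of the 6 pathway lists (-0.16 to 0.28) lie inside the band, and that of the feeder fibroblast markers lies at -1.79.

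Markers of other cells differed far more than the sterol genes. The 20 fibroblast markers had a median log2 ratio of -1.79, with Col1a2 at 1668 counts in knockdown RNA and 5453 in control RNA, while Vim and Fn1 stood at -0.35 and -0.18. Of 9 entered macrophage markers, 1 was higher and 5 were lower, against 4.68% and 9.48% of all entered genes. The summed level over all 10 was 37.2 CPM in the knockdown and 49.2 CPM in the control library. Marco, at 135 counts in knockdown RNA and 0 in control RNA, was the only one of the 10 at 0, and Lyz2 had 272 counts in knockdown RNA and 539 in control RNA. The part of these cells in the ratios of the sterol genes was not tested.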

How the data were processed

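The deposited table gives raw read counts per gene for 1 library of each group, with a gene length in bases. The submitters' processing notes name DESeq, featureCounts, HISAT2 and Trim Galore and the builds GRCm38 and mm10. Their versions, annotation release and strand setting are not stated.

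Symbols and coordinates came from GENCODE M21 (GRCm38), which matched 46488 of 46983 identifiers. TMM factors (knockdown 0.960, control 1.04) came from edgeR 4.0.16 under R 4.3.3, and alternative size factors with DESeq2 1.42.0. Everything else was computed with scipy 1.17.1, pandas 2.3.3, numpy 2.4.6 and matplotlib 3.10.9 under Python 3.11.15. Ratios set knockdown over control with no pseudocount. A library with 0 counts of a gene was given 3, and genes with 3 counts or fewer in both have no ratio. Intervals and floors cover counting error only. The change in the ratio of 2 members has the exact conditional interval of an odds ratio. The calling rule was checked on simulated counts that carried counting error only. That check says nothing of the variation between cultures or clones.

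The members and lists were chosen with earlier results of these data known. Named genes are the 7 members, the called genes and the 2 most abundant of each pathway list, and the 3 most abundant of each marker list; some of these are not reported here. With 2 libraries no likeness of pattern across samples can be measured. Alternatives were other scalings, filters, a prior count of 2, a 1.5-fold threshold, centring in 10 bins of length or expression and other lengths. The pooled Idi1 count, the length of the longest coding transcript, the shorter motif and the scaling without fibroblast markers were added after seeing the data.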

Additional observations from a re-analysis of the deposited data

How the results depend on the processing

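No member was called under any scaling, filter or prior count tried. Scaling by total counts shifted the median of all entered genes by -0.12 and gave a median of 0.06 for the 7 members. Over 8 settings of scaling, centring and prior count, the reported one included, Idi1 and Hmgcs1 stayed below 0 and Sqle, Cyp51, Insig1 and Lss above, while Srebf2 ran from -0.12 to 0.03 and changed sign. The 1.5-fold threshold called 1 member, 19 genes of the 6 pathway lists (8 at 2-fold) and 4415 of all genes (2245 at 2-fold), and the filter at 5 CPM left 3 and 1058 calls because fewer genes entered. Soat1 passed 2-fold with total counts (-1.03). Summed over the members, TPM was 187.4 in knockdown RNA and 212.5 in control RNA. Among nuclear protein-coding genes alone it was 845 in knockdown RNA and 865 in control RNA. With the length of the longest coding transcript for the members only, and deposited lengths for the library total, it was 225 in knockdown RNA and 248 in control RNA. Those shorter member lengths raise the sum by themselves. The shorter motif matched 3 members in place of 1. No paired analysis was possible because each group had 1 library. Counting error at this depth is well under 2-fold for the 7 members; the spread between cultures was not measured.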
